A study of Caenorhabditis elegans with 2 samples.

Results

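The snoRNA genes of Caenorhabditis elegans were examined for binding of the C17E4.6 protein. All 346 nuclear genes that the Ensembl annotation of the WBcel235 (ce11) assembly gives the biotype snoRNA were taken, out of 46890 nuclear genes in all. Each gene was given a window that began 500 bp ahead of its 5′ end and reached 200 bp past it. A gene was called marked when the summit of a peak, the point of highest signal that the authors report for it, lay in this window. The data came from chromatin immunoprecipitation followed by sequencing with an antibody against GFP, in 2 biological replicates of whole young adult worms of strain RW12293. These animals carry st12293, a CRISPR insertion of TY1, EGFP and 3xFLAG tags at C17E4.6, and were collected 62 hours after growth from starved first-stage larvae. Every animal carried the tagged gene, all tissues were pooled, and no untagged strain or control immunoprecipitation was analysed here, so all comparisons are between replicates and between classes of gene. The combined list of both replicates held 1017 peaks that passed the authors' limit on the irreproducible discovery rate (IDR). The IDR measures how poorly a peak's rank recurs between paired lists of peaks. Lists of single replicates carry scores of it as well, so a passing peak need not have been found in both biological replicates. The read depth is unknown, because the lists hold no counts.

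Small nucleolar RNAs guide the chemical modification of ribosomal RNA in the nucleolus. Those of the C/D class direct methylation of ribose and those of the H/ACA class direct the conversion of uridine to pseudouridine. Many lie in introns of protein-coding genes, from which they can be released when the host transcript is spliced, whereas others have promoters of their own. Transfer RNA genes are known for an internal promoter of an A box followed by a B box, which recruits RNA polymerase III, and small nuclear RNA genes for an upstream element bound by the SNAPc complex. C17E4.6 encodes a member of the VPS72 (YL1) family, whose relatives in yeast and animals are subunits of complexes that exchange histone H2A for the variant H2A.Z.

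The windows of 38 of the 64 marked snoRNA genes held at least 1 of 2 arrangements of bases, and the genes below were chosen to show them. The first arrangement, called here the split element, reads GNAAC, then 2 free bases, G, 5 free bases and TGTCNG, where N is any base. Its fixed letters were taken from the sequences ahead of marked snoRNA genes after these had been seen, so the share of marked genes among those that hold it is a description. In the 5 sequences below, read 5′ to 3′ on the strand of the snoRNA gene from 110 bp upstream to the first 10 bases of the gene, capitals mark both parts of the split element. They come from the RefSeq copy of WBcel235 (ce11).
ZK994.7 (chrV:8500469-8500588, plus strand): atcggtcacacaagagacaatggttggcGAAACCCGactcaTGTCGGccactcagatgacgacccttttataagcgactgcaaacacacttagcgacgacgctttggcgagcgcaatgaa
T26A8.6 (chrIV:8428730-8428849, minus strand): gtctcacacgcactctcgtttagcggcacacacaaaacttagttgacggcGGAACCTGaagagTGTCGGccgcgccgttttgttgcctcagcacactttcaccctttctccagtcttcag
Y67A10A.14 (chrIV:14327112-14327231, minus strand): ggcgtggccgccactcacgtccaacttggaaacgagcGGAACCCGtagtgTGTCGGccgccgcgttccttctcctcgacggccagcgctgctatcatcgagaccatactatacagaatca
Y55F3BR.9 (chrIV:867124-867243, minus strand): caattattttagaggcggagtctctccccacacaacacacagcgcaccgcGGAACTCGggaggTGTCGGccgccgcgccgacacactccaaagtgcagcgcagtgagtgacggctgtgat
C16D9.11 (chrV:8228960-8229079, minus strand): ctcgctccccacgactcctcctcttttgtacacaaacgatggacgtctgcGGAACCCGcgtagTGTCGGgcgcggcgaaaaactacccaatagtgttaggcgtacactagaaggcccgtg
In each of these the right part reads TGTCGG. ZK994.7 and C16D9.11 lie in introns of pxn-1 and rol-3 on the same strand as the host, Y55F3BR.9 lies in an intron of Y55F3BR.2 on the opposite strand, and T26A8.6 and Y67A10A.14 lie outside coding genes.

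The second arrangement was a pair of tRNA-type boxes, an A box of TGG, 3 free bases, A, 2 or 3 free bases and GG, followed after 20 to 80 bases by a B box of GTTCNANNC. The letters of the A box and its spacing were also set after the sequences had been seen. Capitals mark the A box and the B box in the 5 sequences below, which cover the same stretch of each gene.
C51F7.3 (chrV:12303598-12303717, plus strand): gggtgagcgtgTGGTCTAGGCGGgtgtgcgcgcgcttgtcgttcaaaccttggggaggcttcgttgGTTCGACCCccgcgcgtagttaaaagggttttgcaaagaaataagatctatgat
W03C9.9 (chrII:11960788-11960907, plus strand): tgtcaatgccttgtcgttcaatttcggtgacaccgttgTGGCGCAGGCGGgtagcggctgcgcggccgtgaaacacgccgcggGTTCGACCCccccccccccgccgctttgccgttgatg
T03F7.8 (chrV:11314148-11314267, plus strand): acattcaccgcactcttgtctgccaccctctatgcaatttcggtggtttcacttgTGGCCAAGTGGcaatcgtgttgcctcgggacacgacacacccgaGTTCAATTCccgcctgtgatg
M106.6 (chrII:10840207-10840326, plus strand): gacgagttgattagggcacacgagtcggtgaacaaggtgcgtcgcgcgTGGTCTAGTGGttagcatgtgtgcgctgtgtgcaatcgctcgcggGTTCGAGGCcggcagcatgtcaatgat
Y75B12B.12 (chrV:15191084-15191203, minus strand): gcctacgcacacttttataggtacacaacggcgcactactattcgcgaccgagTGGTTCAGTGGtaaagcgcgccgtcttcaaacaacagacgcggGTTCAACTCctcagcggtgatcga
In T03F7.8, M106.6 and Y75B12B.12 the B box ends just ahead of the annotated 5′ end, and in C51F7.3 and W03C9.9 it lies farther upstream. A 6th sequence shows a marked gene that misses the pair by its B box, with capitals on the A box alone.
T06C12.16 (chrV:15873917-15874036, minus strand): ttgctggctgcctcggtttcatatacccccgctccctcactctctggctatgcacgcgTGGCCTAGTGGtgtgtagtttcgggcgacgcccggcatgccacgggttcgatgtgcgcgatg
Here the bases after the A box hold a run that resembles a B box but lacks its last fixed letter, so the window of T06C12.16 counted as holding neither arrangement.

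Of the 346 snoRNA genes, 64 were marked, or 18.5% (95% Wilson interval 14.8 to 22.9%). The same window held a combined summit for 2.1% of all nuclear genes and for 2.79% of the 19973 protein-coding genes. The share of small nuclear RNA genes was 25 of 129 (19.4%, 13.5 to 27.0%) and that of tRNA genes 88 of 612 (14.4%, 11.8 to 17.4%). Both intervals overlap the interval of the snoRNA genes. The share of microRNA genes was lower, at 10 of 261 (3.83%), and its interval of 2.09 to 6.91% lies below that of the snoRNA genes. All intervals here cover counting error only and no test was made, since genes that share a summit or a sequence are not independent. The 64 genes drew on 63 distinct strongest summits, because C51F7.3 and C51F7.4 share one, and 3 genes held more than 1 summit. Of the 1017 combined summits, 66 lay in a snoRNA window, or 6.49%.

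**Figure D1:**
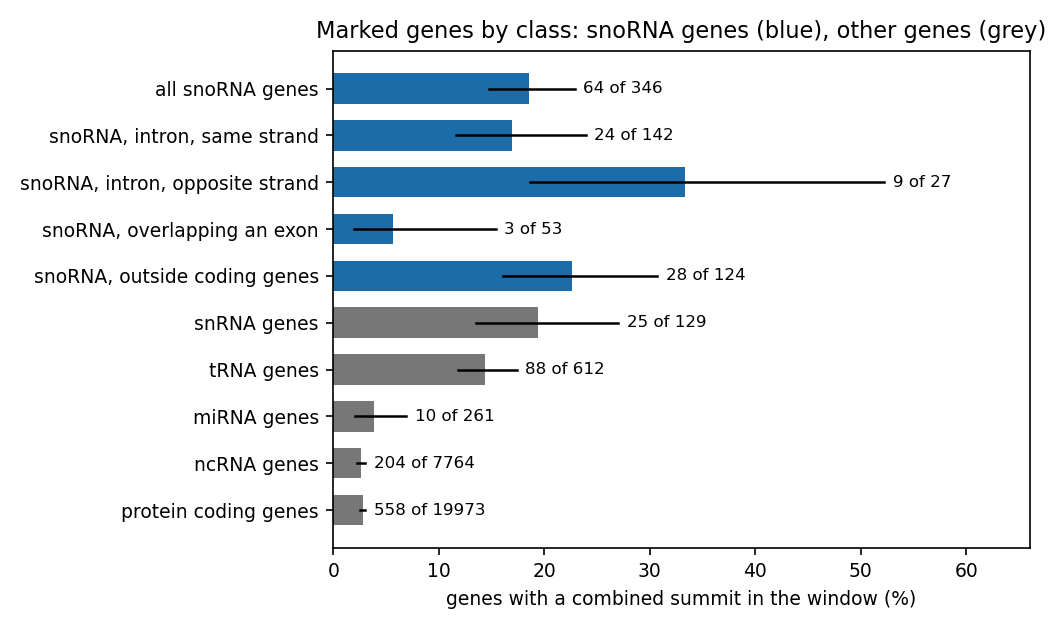
Share of genes with a combined summit in the window (horizontal axis, %) for all snoRNA genes, their 4 classes of position and 5 other biotypes; bars give the share, black lines the 95% Wilson interval, and labels the counts. The bar of all snoRNA genes ends at 18.5%, that of protein-coding genes at 2.79%, and the class on the opposite strand in an intron has the widest interval.

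The call was repeated in each replicate on its own. In the thresholded list of replicate 1, 44 snoRNA genes had a summit (12.7%, against 1.3% of all nuclear genes and 1.72% of coding genes), and in that of replicate 2, 41 had one (11.8%, against 1.02% and 1.34%). The authors' conservative combined list marked 66 snoRNA genes (19.1%, against 2.05% and 2.66%). Among the 64 genes marked in the combined list, 31 were in both thresholded lists of single replicates, 9 in that of replicate 1 only, 8 in that of replicate 2 only and 16 in neither. The ranked lists also hold weak peaks. A score of 830, which stands for an IDR of 0.01, was reached in the ranked list of replicate 1 by 44 snoRNA genes (12.7%, against 1.31% of all nuclear genes and 1.72% of coding genes) and in that of replicate 2 by 42 (12.1%, against 1.03% and 1.34%). It was reached in both ranked lists by 31 snoRNA genes (8.96%), beside 0.71% of all nuclear genes and 0.946% of coding genes. With no limit on the score, 205 snoRNA windows held a summit in replicate 1 (59.2%, against 33.2% of coding windows) and 221 in replicate 2 (63.9%, against 34.1%). Both lists had one in 172 snoRNA windows (49.7%, against 14.6% of all gene windows and 18.6% of coding ones), and 92 snoRNA windows held none in either. The marked genes F32E10.10, F38E11.14 and T19B4.8 had no summit in the window in the ranked list of replicate 1.

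The signal of a peak is the authors' own value, its scale is unknown, and it describes peaks within a list only. Among the 64 marked genes the combined signal ranged from 57.4 to 279.5 with a median of 101.1, against a median of 78.99 (95% interval 77.05 to 81.34) over the 951 combined peaks with no summit in a snoRNA window. The signal of marked genes ranged from 27.64 to 148.3 in replicate 1 (median 56.85, n = 61) and from 14.38 to 124.8 in replicate 2 (median 43.28, n = 64). Unmarked windows that held any ranked summit had a median of 20.09 in replicate 1 (n = 144, highest 52.41) and 17.45 in replicate 2 (n = 157, highest 44.33). Across the 61 marked genes with a summit in both ranked lists, the 2 signals had a Spearman's rho of 0.61 and a Pearson's r of 0.658 on the log2 scale, given as a description, since all these genes share the same 2 libraries. The signal was higher in replicate 1 for 45 of them and higher in replicate 2 for 16, with a median log2 ratio of replicate 2 to replicate 1 of -0.209 (SD 0.468).

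**Figure D2:**
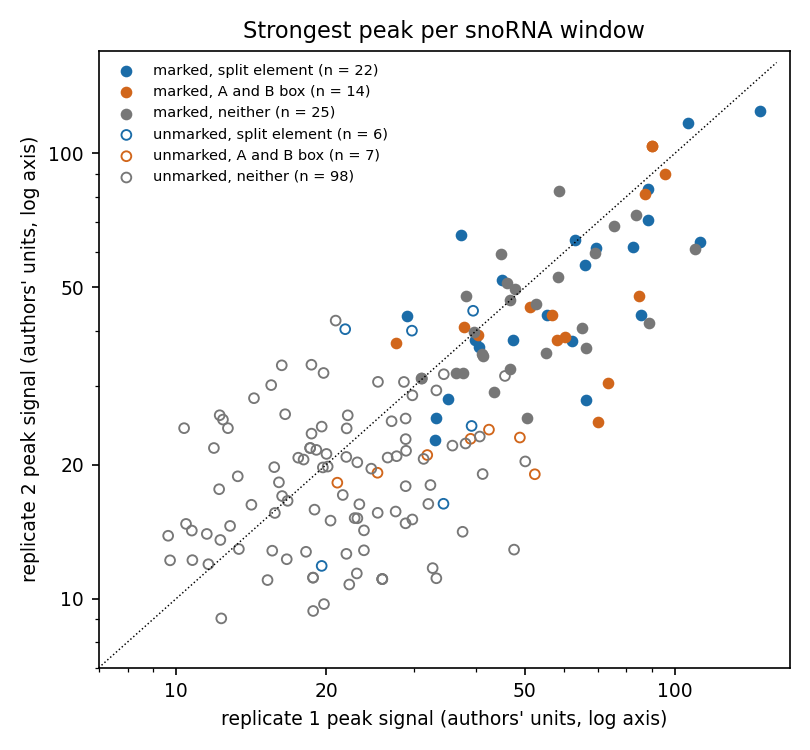
Signal of the strongest ranked peak in each snoRNA window in replicate 1 (horizontal, log axis) and replicate 2 (vertical, log axis) for the 172 genes with a summit in both; filled points are marked genes, open points unmarked genes, blue the split element, orange the A and B box pair, grey neither, and the dotted line marks equal signal. Marked genes sit to the upper right, with overlap between filled and open points from about 27.64 to 52.41 in replicate 1.

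Summits lay at the 5′ ends of the snoRNA genes. The median distance from the 5′ end to the strongest summit was -38 bp (95% interval -50 to -14 bp), where a negative value means upstream, and the interquartile range ran from -58 to -4.75 bp. For the 558 marked coding genes the median was -198.5 bp (-217 to -186 bp). Of the 64 summits, 54 were within 100 bp of the 5′ end (84.4%), 49 were upstream and 43 lay between 100 bp upstream and the 5′ end. For 51 genes no annotated 5′ end of any biotype was nearer to the summit than the snoRNA gene's own. For the others the nearest was another snoRNA gene in 1 case, an ncRNA gene in 6, a coding gene in 4 and a pseudogene in 2. The annotated 5′ ends of coding genes are often sites of trans-splicing that lie downstream of the start of transcription, so the coding median is not a distance from the start site. The median width of the combined peaks was 284 bp, which limits how finely a summit places a signal.

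**Figure D3:**
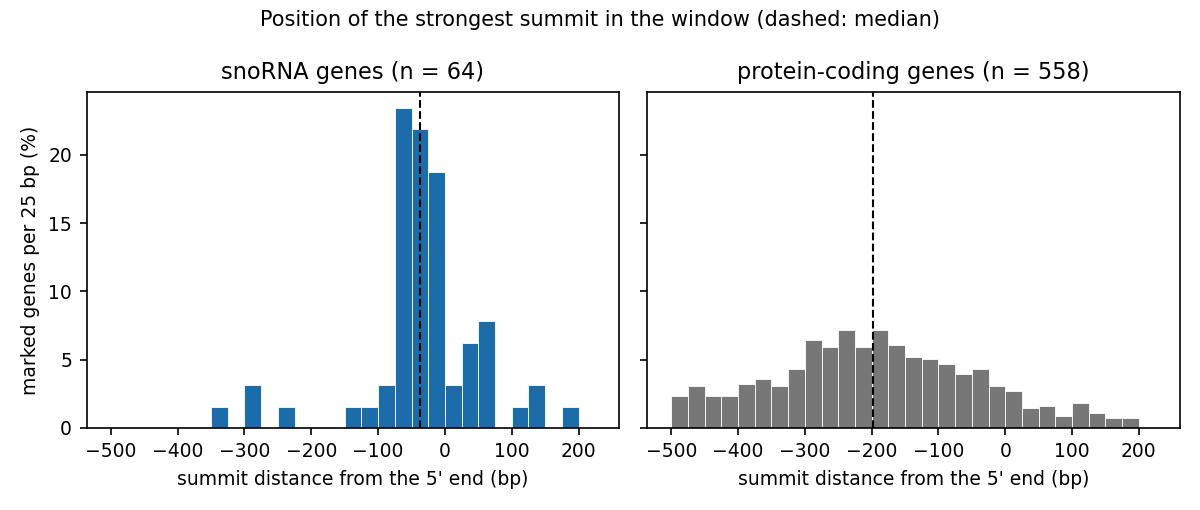
Distance of the strongest combined summit from the annotated 5′ end (horizontal, bp, negative upstream) as the share of marked genes per 25 bp (vertical, %), for 64 marked snoRNA genes on the left and 558 marked protein-coding genes on the right; dashed lines mark the medians of -38 and -198.5 bp. The snoRNA summits crowd just upstream of the 5′ end, while the coding summits spread over the upstream part of the window.

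The 2 snoRNA genes of highest signal, ZK994.7 and F59C6.15, both held the split element. ZK994.7 (WBGene00044958, chromosome V), in an intron of the peroxidasin gene pxn-1 and 5690 bp from the 5′ end of that host, had a signal of 148.27 in replicate 1 and 124.81 in replicate 2. Its combined signal of 279.53 was the highest of any snoRNA gene and ranked 12th of all 1017 peaks, with the summit at -11 bp. F59C6.15, on chromosome I outside coding genes, followed with 106.35 in replicate 1 and 116.91 in replicate 2, and a combined signal of 212.71. T26A8.6 had 112.36 in replicate 1 and 63.31 in replicate 2, and Y67A10A.14 had 88.46 in replicate 1 and 83.40 in replicate 2. Each of these passed the score of 830 in both replicates. Y55F3BR.9 had 88.50 in replicate 1 and 70.83 in replicate 2, with a summit 28 bp inside the gene, nearer to the ncRNA gene Y55F3BR.17 than to its own 5′ end. C16D9.11 in rol-3, a gene of the ROS receptor tyrosine kinase family, had 85.40 in replicate 1 and 43.27 in replicate 2, and Y37E3.20 in pcyt-2.1 had 63.06 in replicate 1 and 64.05 in replicate 2. The replicates therefore gave unequal signals for single genes, with the larger one in either replicate. The marked gene of lowest combined signal, W04D2.7 in the innexin gene inx-11, also held the split element, with a combined signal of 57.39 and 33.09 in replicate 1 and 22.79 in replicate 2.

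The A and B box pair stood ahead of a second group of strong peaks. C51F7.3 and C51F7.4 lie close together within frm-7, a gene of the FERM domain family, and share a summit of 89.83 in replicate 1 and 103.65 in replicate 2. That summit is at -53 bp for C51F7.3 and 56 bp inside C51F7.4, and the pair of boxes lies between the 5′ ends of both genes, so which of them it belongs to cannot be told apart. W03C9.9, outside coding genes, had 95.70 in replicate 1 and 90.08 in replicate 2. T03F7.8, in an intron of cutl-18 on the opposite strand, had 87.30 in replicate 1 and 81.06 in replicate 2. M106.6, in mix-1, which encodes a subunit of the condensin and dosage compensation complexes, had 56.85 in replicate 1 and 43.37 in replicate 2, at 16071 bp from the 5′ end of its host. For these 5 genes the replicates differed by less than a factor of 1.5. Other members were less even. Y75B12B.12 had 84.85 in replicate 1 and 47.74 in replicate 2, and Y43F8C.22 had 73.35 in replicate 1 and 30.50 in replicate 2, where its score of 241 was below the limit. T19B4.8 had 65.57 in replicate 2 alone.

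Marked genes were frequent among the windows that held either arrangement on the strand of the snoRNA gene. The split element was found in 30 snoRNA windows, of which 22 were marked (73.3%, 55.6 to 85.8%), and 1 of these, that of Y55F3BR.9, also held the A and B box pair. The pair without the split element was found in 30 windows, of which 16 were marked (53.3%, 36.1 to 69.8%). Of the 286 windows with neither, 26 were marked (9.09%, 6.28 to 13.0%), which is still above the 2.1% of all nuclear genes. Together the 60 windows with an arrangement held 38 of the 64 marked genes. In the thresholded list of replicate 1 alone the marked genes numbered 14 with the split element, 12 with the pair and 18 with neither, and in that of replicate 2 alone 17, 9 and 15. Signals of the ranked lists were also taken without a limit on the score. Windows with the split element that held any ranked summit had a median signal of 45.06 in replicate 1 (n = 29) and 43.18 in replicate 2 (n = 28), and those with the pair had 50.03 in replicate 1 (n = 24) and 38.11 in replicate 2 (n = 23). Windows with neither had 21.8 in replicate 1 (n = 152) and 18.33 in replicate 2 (n = 170). As the arrangements were set on marked genes, which have high signals, these medians are a description as well.

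The split element held a nearly fixed place. It started between -82 and -56 bp in all 30 windows, with a median of -60.5 bp, when the whole window was searched. The letters of both arrangements were set on sequences ahead of marked genes, so their places are a description. The A box of the pair started between -80 and -45 bp in 25 of 31 windows, with 14 of these 25 marked, and the median start was -57 bp. In the 22 marked genes with the split element the summit lay a median of 34.5 bp downstream of the element's centre (95% interval 13 to 90 bp), that is, between the element and the gene or in the gene. In the 17 marked genes with the pair of boxes the summit lay a median of -5.5 bp from the centre of the pair (-20.5 to 14.5 bp). These 2 intervals overlap between 13 and 14.5 bp.

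**Figure D4:**
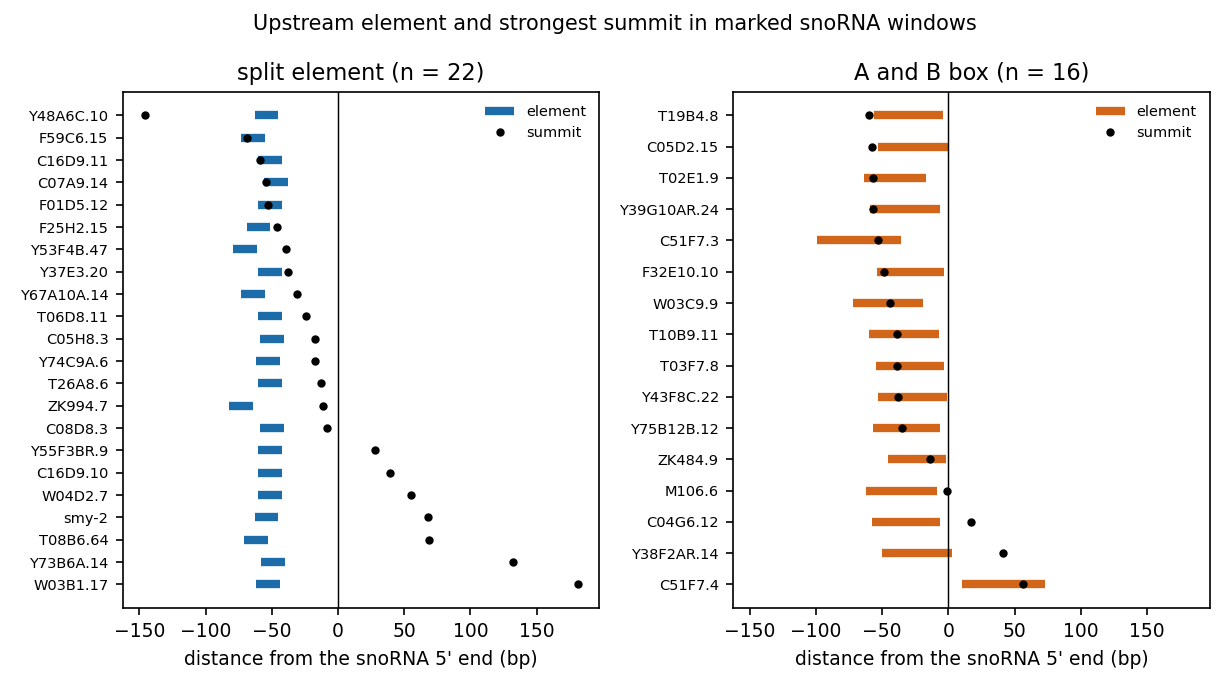
Element (coloured bar) and strongest combined summit (black point) of each marked snoRNA gene by distance from its 5′ end (horizontal, bp). The left holds 22 genes with the split element and the right 16 with the A and B box pair alone. Each row is 1 gene, sorted by summit. The split elements line up near -60 bp with most summits to their right, and most summits of the other group fall on or beside the bar that spans both boxes.

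The same letters were counted in the windows of other genes, each read on the gene's own strand. The split element was in 8.67% of snoRNA windows and in 0.621% of the windows of all nuclear genes. It was in 22 of 129 small nuclear RNA windows (17.1%), of which 12 were marked, and in 32 of 19973 coding windows (0.160%), of which 1 was marked. Searching both strands gave 31 snoRNA windows, 22 of them marked, and 0.973% of all windows. The A and B box pair was in 8.96% of snoRNA windows, in 1.57% of all windows and in 56.2% of the 612 tRNA windows. Of the 344 tRNA windows that held it, 47 were marked (13.7%, 10.4 to 17.7%), against 41 of 268 without it (15.3%, 11.5 to 20.1%). It was in 97 coding windows, of which 8 were marked (8.25%, 4.24 to 15.4%), against 2.77% of those without it. The letters were read from marked snoRNA genes, which favours snoRNA windows over all windows in these frequencies, so they are a description. For the same reason the marked share of snoRNA windows that hold the letters is not set against that of other genes. Base composition differed as well. The 100 bp ahead of the gene had a median GC content of 56% in marked snoRNA genes (n = 64) and 42% in unmarked ones (n = 282). It was 56.5% with the split element, 54% with the pair and 42% with neither. The part of base composition in the marks was not tested.

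Other motifs were counted in the same windows. A B box, with or without an A box, was in 76 snoRNA windows on the gene's strand, of which 25 were marked (32.9%), against 39 of 270 without it (14.4%). These 76 include the 31 windows with the pair, 17 of them marked. In the other 45 windows 8 genes were marked (17.8%, 9.29 to 31.3%), an interval that holds the 14.4% of windows without a B box. The TATA motif TATAAA was in 104 windows with 22 marked (21.2%), against 42 of 242 without it (17.4%). The E2F motif TTGGCGC was in 11 windows with 2 marked, and the EOR-1 motif CTGCGTCT in 12 windows with 2 marked, and these shares of 18.2% and 16.7% have wide intervals of 5.14 to 47.7% and 4.70 to 44.8%. With both strands searched, TATAAA was in 176 snoRNA windows (50.9%, against 63.4% of all gene windows), with 37 marked (21.0%), against 27 of 170 without it (15.9%). TTGGCGC was in 19 (5.49%, against 4.13%), with 3 marked (15.8%), against 61 of 327 without it (18.7%). CTGCGTCT was in 23 (6.65%, against 4.38%), with 2 marked (8.70%, 2.42 to 26.8%), against 62 of 323 without it (19.2%, 15.3 to 23.8%). A match says that these letters are in the window, and no match says only that they are not.

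The 26 marked genes with neither arrangement were a mixed group. An A box by itself, starting between -110 and -30 bp, was in 8 of them, T06C12.16, ZK265.10, C10C6.8 and C27H6.5 among these, and in 16 of the 260 unmarked genes with neither. A B box by itself near the 5′ end was in 3 (Y23H5B.10, F11A10.9 and C53B7.8) against 7 of 260, and the right part of the split element in 4 (F54E7.10, M03D4.78, D1046.6 and smy-3) against 20 of 260. None of these was in the other 11. The letters of the A box and the split element were set on sequences ahead of marked genes, so these counts are a description. Among the stronger genes, T06C12.16 had a signal of 69.34 in replicate 1 and 59.82 in replicate 2, and ZK265.10 had 58.50 in replicate 1 and 82.43 in replicate 2. C53B7.8, the single marked snoRNA gene on the X chromosome, had 65.20 in replicate 1 and 40.62 in replicate 2.

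The snoRNA genes were also grouped by their position relative to coding genes, and marked genes were found at every position. Of 142 genes nested in an intron on the strand of the host, 24 were marked (16.9%, 11.6 to 23.9%), and of 27 nested on the opposite strand, 9 were marked (33.3%, 18.6 to 52.2%). Both strands together gave 33 of 169 (19.5%, 14.3 to 26.2%), against 28 of the 124 genes outside coding genes (22.6%, 16.1 to 30.7%). These intervals overlap, so no difference between nested and outside genes was detectable with these numbers. The 53 genes that overlap an exon of a coding gene had 3 marked (5.66%, 1.94 to 15.4%), an interval that lies below that of the genes outside. The combined signal of marked genes had a median of 101.8 on the same strand (n = 24), 90.15 on the opposite strand (n = 9) and 108.5 outside (n = 28), with overlapping intervals. The summit distance also differed little, with medians of -38 bp on the same strand, -17 bp on the opposite strand and -37 bp outside. In the thresholded list of replicate 1 alone, 13 genes were marked on the same strand, 7 on the opposite strand and 22 outside, and in that of replicate 2 alone, 15, 4 and 21.

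At each position the marked share was higher among genes with an arrangement. On the same strand in an intron, 14 of 19 genes with one were marked (73.7%, 51.2 to 88.2%), against 10 of 123 with neither (8.13%, 4.48 to 14.3%). On the opposite strand the counts were 7 of 11 against 2 of 16, for exon overlap 2 of 3 against 1 of 50, and outside coding genes 15 of 27 (55.6%, 37.3 to 72.4%) against 13 of 97 (13.4%, 8.0 to 21.6%). On the opposite strand these were 63.6% with an arrangement (35.4 to 84.8%) and 12.5% with neither (3.5 to 36%). Since the letters and spacing were set on marked genes of all positions, these shares describe the genes and test nothing. The nested genes of the opposite strand included T03F7.8, Y55F3BR.9, ZK484.9 in the ABC transporter gene haf-9, C04G6.12 in the MAP kinase gene mpk-2 and C07A9.14 in the exchanger gene ncx-7. ZK484.9 had 58.12 in replicate 1 and 38.11 in replicate 2, and C04G6.12 had 60.26 in replicate 1 and 38.70 in replicate 2.

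**Figure D5:**
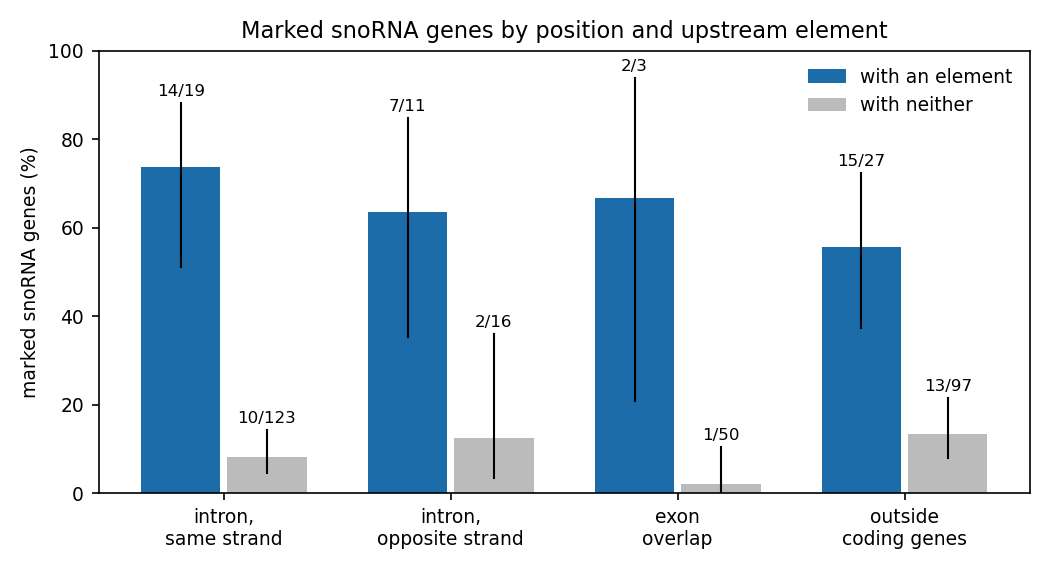
Share of marked snoRNA genes (vertical, %) by position relative to coding genes, with an element in the window in blue and with neither in grey. Black lines are 95% Wilson intervals and labels give marked genes over all genes. In every class the blue bar is higher, from 55.6% to 73.7%, while the grey bars lie between 2.0% and 13.4%.

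Summits of snoRNA genes on the strand of their host were also compared with the promoter of the host. Of the 24 marked genes, 21 had their summit outside the host's promoter window, which is the same stretch around the host's 5′ end. Most of these 24 genes lie too far from the host's 5′ end for both windows to hold the same summit. The count of 21 therefore follows largely from distance and shows no preference. Of the 24 marked genes, 20 had the summit within 100 bp of their own 5′ end. Their 5′ ends lay a median of 2383 bp from that of the host (n = 24), against 1498 bp for the 118 unmarked ones, with overlapping intervals. Genes more than 500 bp from the host's 5′ end were marked in 21 of 113 cases (18.6%) and nearer ones in 3 of 29 (10.3%). The 3 genes with a summit in the host's promoter window all lay within 500 bp of its 5′ end: F54E7.10 in the ribosomal protein gene rps-12, Y24D9A.9 in the ribosomal protein gene rpl-7A and F25H2.14 in tct-1, the homologue of translationally controlled tumour protein. F54E7.10 had a signal of 109.86 in replicate 1 and 61.12 in replicate 2, with the summit at -231 bp, nearer to the 5′ end of ska-3. Y24D9A.9 had 83.75 in replicate 1 and 72.82 in replicate 2, with the summit at -345 bp, nearest to rpl-7A itself. These summits can belong to the coding promoter, to the snoRNA gene or to both, which cannot be told apart here.

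The hosts themselves were marked more often than other coding genes. Of 124 coding genes with a snoRNA gene in an intron on their strand, 16 had a summit in their own promoter window (12.9%, 8.1 to 19.9%), against 542 of the other 19849 coding genes (2.73%). Only 4 of these 16 also contained a marked snoRNA gene: hsp-1, which encodes a constitutive Hsp70, rpl-7A, rps-12 and tct-1. The other 12 included rpl-15, rps-13, rps-23, eef-1G, iff-2, cdc-48.1 and top-2, genes of ribosomal proteins, translation factors, the CDC-48 ATPase and a type II topoisomerase, and none of their 18 snoRNA genes was marked. In 20 hosts the reverse held, with a marked snoRNA gene and an unmarked promoter, among them pxn-1, rol-3, mix-1, frm-7 and inx-11. Of 13 hosts that are ribosomal protein genes by symbol, with 19 snoRNA genes between them, 5 had a marked promoter and 2 of the snoRNA genes were marked. These 2 lie in rps-12 and rpl-7A, and each has its strongest summit in the promoter window of its host, as given above. Neither mark is therefore separate from that of its host. The counts of these 13 hosts were not tested against those of other hosts. No measure of the hosts' expression is in these lists.

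Of the snoRNA genes outside coding genes, 34 had a window that met the promoter window of a coding gene, and 9 of these were marked (26.5%, 14.6 to 43.1%), against 19 of 90 whose window met none (21.1%, 14 to 30.6%). Over all classes, 13 of 64 summits (20.3%) lay in a coding promoter window as well. Among these were Y53F4B.47, whose summit is also in the window of cmtr-1, M03D4.78 beside zen-4, which encodes a mitotic kinesin, and smy-3 beside D1086.3. M03D4.78 had 75.39 in replicate 1 and 68.80 in replicate 2, with the summit at -85 bp, and its own 5′ end was the nearest. F37F2.4 had 46.68 in replicate 1 and 32.80 in replicate 2, with the summit at -291 bp, nearest to the coding gene F37F2.2.

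Few genes lay near the edge of the window. Of the unmarked genes, the 5 whose windows ended closest to a combined summit were C06A1.9 at 11 bp, JC8.15 at 25 bp, H06I04.8 at 42 bp, K11H12.13 at 67 bp and F54E7.11 at 98 bp. All 5 lie in introns on the strand of their host, in cdc-48.1, tag-115, ubl-1, rpl-15 and rps-12, at 215 to 496 bp from the host's 5′ end, and hold neither arrangement. The marked genes closest to the edge were W03B1.17 at 19 bp inside, B0334.12 at 65 bp and Y73B6A.14 at 68 bp, all with summits downstream of the 5′ end.

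Several unmarked genes had a strong signal in at least 1 list. F30H5.4, with the A and B box pair, had 52.41 in replicate 1, at the top score of 1000, but 19.04 in replicate 2, at a score of 336. C41C4.11, also with the pair, had 48.92 in replicate 1 and 23.02 in replicate 2, and T19C4.11 in gpa-1, with neither, had 50.15 in replicate 1 and 20.35 in replicate 2. R08C7.19 had 47.76 in replicate 1, no summit in the window in replicate 2 and a combined score of 829, while W06H8.17 had 47.62 in replicate 1 and 12.90 in replicate 2. These 5 were picked as the unmarked genes of highest signal in either replicate, and all 5 values came from replicate 1, so their lower or absent signal in replicate 2 is no finding. F43A11.8, with the split element, went the other way, with 39.42 in replicate 1 and 44.33 in replicate 2, where it passed the limit, and its window held no summit in the combined ranked list. In all, 6 unmarked genes had a summit in the thresholded list of 1 replicate. F54F11.6, also with the split element, had a combined signal of 73.14, above that of several marked genes, with a score of 387. Of the 22 unmarked genes with an arrangement, 8 held the split element and 14 the pair.

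The marked genes were shorter than the unmarked ones, with a median length of 87.5 bp (75 to 124 bp, n = 64) against 133 bp (129 to 136 bp, n = 282). By the letters of the gene itself, 26 genes had the C/D boxes TGATGA and CTGA, of which 13 were marked (50%, 32.1 to 67.9%), and 91 had ACA near the 3′ end, the mark of the H/ACA class, of which 13 were marked (14.3%, 8.54 to 22.9%). A further 227 genes matched neither set of letters, with 38 marked, and 2 matched both, so the classes were resolved for a minority of genes only. By chromosome, 63 of 313 autosomal genes were marked (20.1%, 16.1 to 24.9%), against 1 of 33 on the X chromosome (3.03%, 0.537 to 15.3%). Among the autosomes the share ran from 6 of 54 on chromosome III (11.1%) to 18 of 59 on chromosome IV (30.5%), with overlapping intervals. The share of all nuclear genes marked on each chromosome is not given here. Whether these differences between chromosomes are particular to snoRNA genes was therefore not tested. Of the 18 genes on chromosome IV, 7 were in neither thresholded list of single replicates. Chromosome V, with 14 of 55 in the combined list (25.5%), had the larger share of these 2 chromosomes in the conservative list (29.1% against 27.1%), in replicate 1 (23.6% against 13.6%) and in replicate 2 (21.8% against 16.9%).

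Near-identical copies can exchange reads, and the labels and headers do not say how reads that map to several places were treated. A copy of at least 90% identity over the gene existed for 11 snoRNA genes, and 5 of these were marked, against 59 of 335 without one (17.6%). F59C6.15 was 97.1% identical to Y67A10A.14, and F25H2.15 was 94.9% identical to F59C6.15. All 3 were marked, so their values are less certain than those of single-copy genes. C53B7.8 and its copy C46C2.8 were 94.5% identical, yet C53B7.8 had 65.20 in replicate 1 and 40.62 in replicate 2, while C46C2.8 had no summit in the window in replicate 1 and 17.39 in replicate 2. The same held for ZK643.9, with 31.06 in replicate 1 and 31.27 in replicate 2, and its copy K09E9.5, with no summit in replicate 1 and 16.29 in replicate 2.

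Genes for the protein partners of snoRNAs were examined as a list of 16 genes, and 1 was marked. This was dkc-1, which encodes dyskerin, the pseudouridine synthase of H/ACA particles, with a combined signal of 134.82 and the summit at -309 bp. The list included fib-1, nol-56, nol-58 and snu-13, the core proteins of C/D particles, and nola-3 and garr-1 of H/ACA particles, none of them marked. It also held gar-1, which in worms encodes an acetylcholine receptor and is no part of a snoRNA particle. Of 13 genes for SNAPc and for factors of RNA polymerase III, 1 was marked, snpc-3.4, with a combined signal of 133.8 and the summit at -64 bp. The background for both lists was the 2.79% of coding genes given above.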

How the data were processed

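The authors deposited peak lists of 2 biological replicates, each ranked and thresholded, and combined lists of both. Per the text files that come with the samples, all lists drew on 1 shared input, and the thresholded ones on 1 further input. Neither an aligner nor a peak caller is named in the labels or headers. The score deposited by the authors followed their −log10 IDR to within 1 unit, capped at 1000, so that 830 stands for an IDR of 0.01 and 540 for 0.05. The signal deposited by the authors has no stated scale, and the summit offset deposited by the authors was counted from the peak start. All peaks of the combined thresholded list were in 1 of the combined ranked lists, which held 70 more peaks of passing score, 0 of them in a snoRNA window. In the combined ranked lists, 16 value columns of single replicates had no sample label and were left out. No list of regions bound by many factors was used.

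Windows were built from Ensembl release 115 and sequence read from the RefSeq copy of WBcel235. Where several summits lay in a window, the one of highest signal was used. An intronic gene lay wholly in introns of a coding gene; the 36 mitochondrial genes were left out. Shares have 95% Wilson intervals, and medians have 95% order-statistic intervals; both cover counting error or spread among genes only. The C/D class was called by TGATGA and CTGA, and the H/ACA class by ACA in the last 8 bases. Identity between genes was computed with edlib 1.3.9.post1. Counting of summits was tested on simulated data. The members, lists and motifs were chosen with earlier results of these data known. The genes named were the 40 marked ones of highest signal, their hosts, the coding genes at the same summit, the 5 unmarked genes nearest a summit and the 5 unmarked genes of highest signal in either replicate's ranked list; the others were named after their values were seen. As alternatives served the conservative list, the upper 508 combined peaks by signal, each replicate alone, windows of 250 and 100 bp or 1000 and 500 bp, peak overlap of 1 bp, the nearest 5′ end, a score of 540 and the RefSeq annotation.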

Additional observations from a re-analysis of the deposited data

How the results depend on the processing

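Of 105 alternative values, 89 kept their direction and stayed within 1.5 times the reported count or within the reported spread, 16 moved further and none changed sign. Leaving out 1 replicate left lists of 414 peaks (without replicate 1) and 570 peaks (without replicate 2) in place of 1017. The 64 marked snoRNA genes became 41 without replicate 1 and 44 without replicate 2, the 24 nested on the host's strand 13 to 15, the 9 on the opposite strand 4 to 7, and the 13 whose summit is also in a coding window 8 to 12. The counts for the split element went to 14 to 17, for the pair of boxes to 9 to 12, and for neither to 15 to 18, from 22, 16 and 26. The 13 summits in a coding window became 7 with the narrow window, 34 with the wide one, 20 with peak overlap and 8 with the nearest 5′ end, where the 16 hosts with a marked promoter became 10. The 26 marked genes with neither arrangement became 17 with the 508 strongest peaks and 41 with the wide window, and the 172 genes with a summit in both ranked lists became 112 with the narrow window. The RefSeq annotation also had 346 snoRNA genes. No paired analysis was possible because there is 1 group and no contrast. With 2 replicates, no control immunoprecipitation and no read counts, an absent peak may be a peak below the limit, and the alternatives share the same reads.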
